A study of Arabidopsis thaliana and Brassica oleracea with 14 samples.

Results

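Leaves of droughted Brassica oleracea were set against leaves of droughted Arabidopsis thaliana, using the 3 arrays whose titles name drought in each species, 6 of the 14 arrays in the series. B. oleracea was of the subspecies alboglabra, line A12DH, and A. thaliana was the ecotype Col-0. Plants of both species were 4 weeks old, grew under a 16 h photoperiod and had gone without water for 5 days, when the relative water content of their leaves averaged 45% with a spread of 15. The remaining 8 arrays, 4 watered controls of each species, enter only where the difference under drought is set beside that in watered leaves. Leaf RNA of 5 plants was extracted in triplicate and pooled per the labels, and 10 µg was labelled with the radioisotope 33P and hybridised to a macroarray, a membrane spotted with DNA probes. Nothing in the labels says that arrays of a group came from separate pools, so the p-values measure spread among arrays that may be technical in part.

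The series title names the genes of PP2C phosphatases. These enzymes remove phosphate groups from serine and threonine residues of other proteins, and some of them hold back the response to abscisic acid, the hormone that closes stomata and turns on protective genes as a leaf dries. When the hormone binds its receptors of the PYR/PYL family, the receptors block these phosphatases, which frees the SnRK2 kinases to act. B. oleracea, the species of cabbage and kale, is a relative of A. thaliana in the same family and carries extra copies of many genes from polyploidy in its ancestry.

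Each array gives the signal at 768 positions, in 16 rows (A to P) of 48 columns. Adjacent columns of a row were averaged as 1 probe, which gave the position pairs, written as I11/I12 for row I, columns 11 and 12. The deposited files leave the name of every position blank, so no pair is tied to a gene, a PP2C or a leaf marker here, and results are given by position. Per the labels 522 features were spotted, and the sources used here do not say how they fill the positions. The difference is one of hybridization signal and not of transcript level, since cDNA of one species may bind less well to a probe that derives from the other. In pooled leaf RNA, fewer cells of a type and less RNA per cell cannot be told apart either.

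The arrays differed in image quality. A. thaliana drought 2 stood apart by its background, and B. oleracea drought 3 by its correlations, given below. The highest total was 2368 units on B. oleracea drought 2, against 6593 to 35524 units on the other arrays. Quantile normalization gives all 6 arrays the same range. The median background was 101, 85.7 and 731 imager units on B. oleracea drought arrays 1, 2 and 3, against 142, 0 and 2086 units on A. thaliana drought arrays 1, 2 and 3. A. thaliana drought 2 was deposited with a background of 0 at every spot, so its signal over background is its total signal. The 96 pairs at even-lettered rows and columns 25 to 48, which carry little signal and are called the low block, served in place of blanks. A pair counted as above the limit of an array when its signal over background exceeded the 95th percentile of the low block there. On A. thaliana drought 2 the low block was uneven, as 131 units at B25/B26, 37.4 at D25/D26, 45.1 at F25/F26 and 72.3 at L25/L26. The limit there, 128 units, lay near the level of row B. Pairs of other rows could fall under it while well above the low-block pairs near them. Of the pairs outside the low block, 71.9%, 67.0% and 49% were above the limit on B. oleracea drought 1, 2 and 3, against 61.1%, 35.8% and 43.4% on A. thaliana drought 1, 2 and 3. The mean was 62.6% ± 12.1 in B. oleracea and 46.8% ± 13 in A. thaliana (SD, n = 3 each; 2-sided exact permutation p = 0.2, where 20 splits allow no p below 0.1), and the groups overlapped. The direction of that difference turned with the definition of a present pair, to -13.2 percentage points with the 99th percentile and to -18.4 with the authors' presence flag.

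B. oleracea drought 3 lay nearer some A. thaliana arrays than its own group by Pearson correlation, and by rank about as near to A. thaliana drought 1 as to its own group. Its normalized signal over all pairs correlated at 0.796 and 0.747 (Pearson) with B. oleracea drought 1 and 2, and at 0.871, 0.729 and 0.848 with A. thaliana drought 1, 2 and 3. Of all other arrays of the series, the one it correlated with best was A. thaliana drought 1. B. oleracea drought 1 and 2 correlated at 0.903 with each other. By rank B. oleracea drought 3 was about as near to A. thaliana drought 1 as to its own group, and less near to A. thaliana drought 2 and 3. Its Spearman correlations were 0.626 and 0.646 against B. oleracea drought 1 and 2, and 0.647, 0.382 and 0.546 against A. thaliana drought 1, 2 and 3. These correlations are across pairs of the same membrane layout, which share bright and dim positions, so they are a description. At 32 pairs the other 5 drought arrays put the species over 1 log2 unit apart, and at 23 of them B. oleracea drought 3 lay nearer the A. thaliana mean. The like count was 4 of 25 pairs for B. oleracea drought 1 and 2 of 20 for B. oleracea drought 2. For the A. thaliana arrays, the counts nearer the B. oleracea mean were 13 of 34, 12 of 32 and 8 of 28. Where a named result rests on B. oleracea drought 3 or on A. thaliana drought 2, its value without the array is given too.

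**Figure D1:**
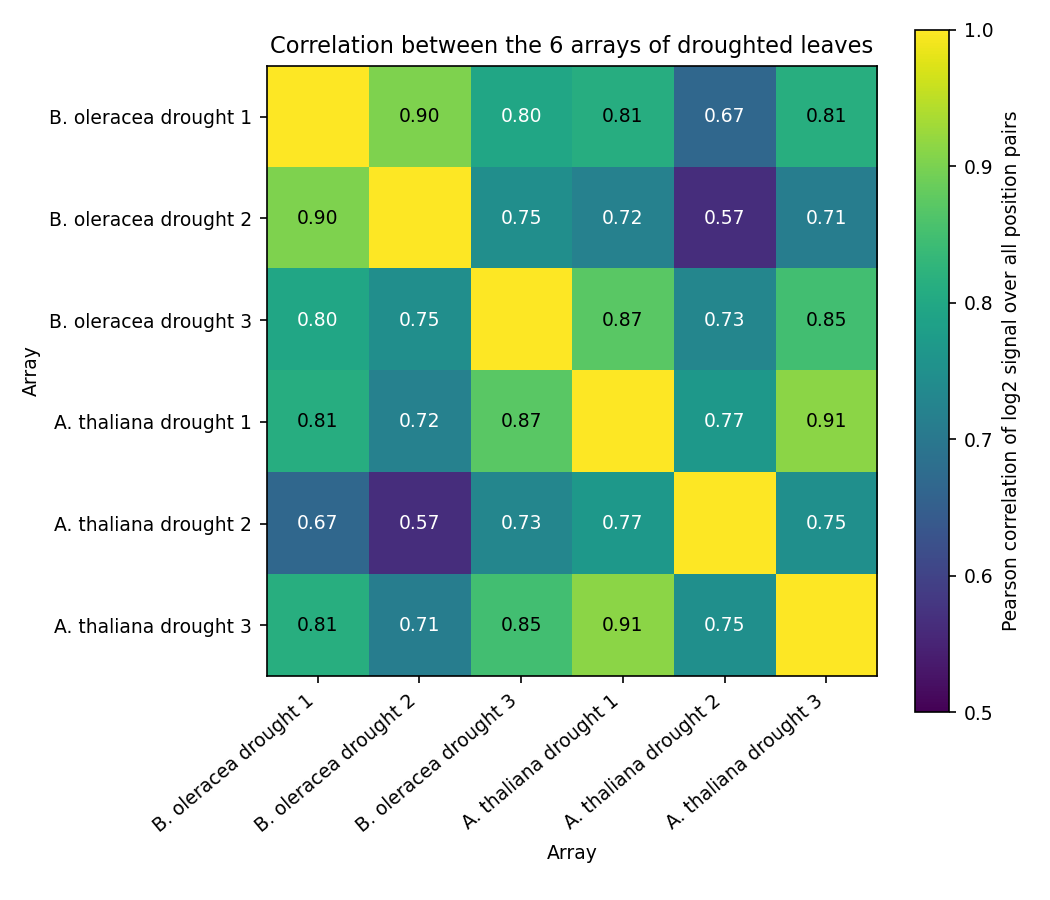
Pearson correlation of normalized log2 signal between the 6 arrays of droughted leaves, over all position pairs, with the B. oleracea arrays first on both axes and the colour scale from 0.5 to 1. B. oleracea drought 3 reaches 0.87 with A. thaliana drought 1 and 0.80 with B. oleracea drought 1.

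The main comparison asked at which probes the species differ in droughted leaves. I11/I12 was the 1 pair that passed the test, and it was brighter in B. oleracea. Its normalized signal was 8.61, 8.75 and 8.22 log2 units on B. oleracea drought 1, 2 and 3, against 6.49, 6.09 and 6.71 on A. thaliana drought 1, 2 and 3. All 3 B. oleracea arrays lay above all 3 A. thaliana arrays. The means were 8.52 ± 0.27 in B. oleracea and 6.43 ± 0.32 in A. thaliana (SD, n = 3 each). B. oleracea was thus 2.10 ± 0.23 (SE) log2 units higher, with a 95% interval of 1.54 to 2.65, or 4.27-fold on the offset scale (limma adjusted p = 0.0254). An offset added before the logarithm makes such a fold understate differences of dim signal. The pair was above the limit on 3 of 3 B. oleracea arrays and 2 of 3 A. thaliana arrays, A. thaliana drought 2 being below it.

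Both spots of the pair gave like values on each array. I11 stood at 557, 247 and 177 units over background on B. oleracea drought 1, 2 and 3, and at 27.5, 113 and 180 units on A. thaliana drought 1, 2 and 3. I12 stood at 471, 209 and 179 units in B. oleracea, and at 25.1, 111 and 153 units in A. thaliana. In these units B. oleracea drought 3 and A. thaliana drought 3 were nearly alike, and they parted, at 8.22 and 6.71 log2 units, after normalization. The 95th percentile over all spots was 187 units over background on B. oleracea drought 3 and 620 units on A. thaliana drought 3.

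The call of I11/I12 held without B. oleracea drought 3, at 2.29 log2 units (limma adjusted p = 0.0233), and without A. thaliana drought 2, at 2.00 (limma adjusted p = 0.0172). It ended without any one of the other 4 arrays, with differences of 1.89 to 2.27 (limma adjusted p = 0.0691 to 0.182). It ended too with median scaling (2.25, limma adjusted p = 0.182), with cyclic loess (2.25, limma adjusted p = 0.130), with no background correction (1.07, limma adjusted p = 0.117) and on all 14 arrays together (1.68, limma adjusted p = 0.0652). Among the 4 arrays of low image background, replicates 1 and 2 of each species, it was 2.49 ± 0.28 (SE; limma adjusted p = 0.0259). The 2 arrays of high background, replicate 3 of each species, gave 1.26 with no test. With background level as a block the difference stayed at 2.10 and the call ended (limma adjusted p = 0.112).

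Across all pairs, limma called 1, which is 0.260% of those tested, with 1 brighter and 0 dimmer in B. oleracea. The unadjusted p was under 0.05 at 37 pairs (9.64%), of which 19 were brighter (4.95%) and 18 dimmer (4.69%). The smallest adjusted p after I11/I12 was 0.220. The species did not overlap at 53 pairs (13.8%), with all B. oleracea arrays above all A. thaliana arrays at 25 (6.51%) and below them at 28 (7.29%). The fitted difference was positive at 185 pairs and negative at 199, with a median of -0.02 log2 units, which quantile normalization holds near 0. Its size exceeded 1 log2 unit at 27 pairs, 13 brighter and 14 dimmer in B. oleracea. The 95% interval extended by a median of 0.55 log2 units on either side of the difference over all pairs, and by 1.01 units at the 43 pairs above the limit on all 6 arrays.

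**Figure D2:**
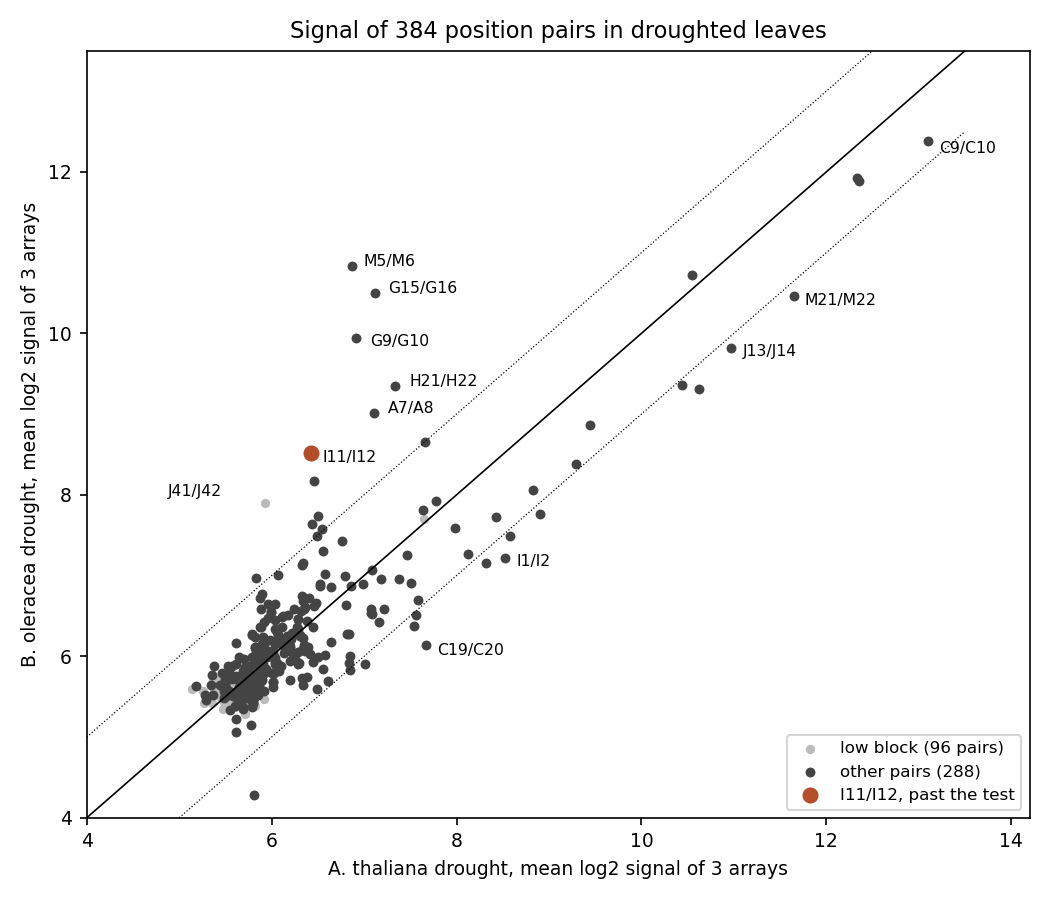
Mean normalized log2 signal of each position pair over 3 arrays, A. thaliana drought on the horizontal axis and B. oleracea drought on the vertical axis, with the solid line at no difference and dotted lines at 1 log2 unit. I11/I12, at 8.52 in B. oleracea and 6.43 in A. thaliana, is the pair past the test, and M5/M6, G15/G16 and G9/G10 lie further from the line.

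The pairs ranked next among those brighter in B. oleracea did not pass the test. L1/L2 stood at 7.25, 6.62 and 7.03 in B. oleracea, against 5.75, 6.01 and 5.74 in A. thaliana, where it was above the limit on 0 of 3 arrays. Only a bound on the fold between the measured means applies there, at 1.94-fold higher in B. oleracea, and it carries no sampling error. The 95% interval of the measured difference was 0.63 to 1.64 log2 units (limma adjusted p = 0.220). The spots of L1/L2 parted on A. thaliana drought 3, at 55.6 and -6.32 units over background. J41/J42 stood at 8.26, 8.33 and 7.11 in B. oleracea, against 6.74, 5.80 and 5.25 in A. thaliana, or 1.97 ± 0.48 (SE) apart (limma adjusted p = 0.259). That pair is itself part of the low block, so the block is not shown to be empty.

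The spots of I9/I10 and J11/J12 were uneven. I9/I10, in the position next to I11/I12, stood at 7.12, 6.90 and 7.39 in B. oleracea and at 6.56, 6.12 and 6.31 in A. thaliana, or 0.81 ± 0.20 (SE) apart (limma adjusted p = 0.260). I9 was brighter than I10 on each array, by 139 against 54.1 units on B. oleracea drought 1 and by 197 against 28.2 units on A. thaliana drought 3. J11/J12 was above the limit on all 6 arrays, at 8.42, 8.13 and 9.39 in B. oleracea and 7.70, 7.40 and 7.86 in A. thaliana. J11 had 415, 135 and 375 units over background and J12 had 517, 169 and 709 units on B. oleracea drought 1, 2 and 3, while J11 had 31.2, 145 and 234 units and J12 had 198, 421 and 957 units on A. thaliana drought 1, 2 and 3. J12 was the brighter on all 6 arrays, and the spots lay further apart in A. thaliana. J11 and J12, like I9 and I10, may thus not hold the same probe. In that case the average is not the signal of a single probe. The J11/J12 difference of 0.99 ± 0.34 (SE) did not pass (limma adjusted p = 0.422). With cyclic loess J11/J12 was the 1 pair called, in place of I11/I12, at 1.49 log2 units (limma adjusted p = 0.0330). L23/L24 averaged 7.31 ± 0.23 in B. oleracea and 6.55 ± 0.32 in A. thaliana (SD, n = 3 each; limma adjusted p = 0.409). O11/O12 averaged 6.36 ± 0.06 in B. oleracea and 5.89 ± 0.13 in A. thaliana (SD, n = 3 each; limma adjusted p = 0.415). Its A. thaliana signal was above the limit on 1 of 3 arrays.

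M5/M6, G15/G16 and G9/G10 had the widest gaps between the species means, and their B. oleracea arrays disagreed. M5/M6 stood at 10.97, 13.10 and 8.42 in B. oleracea, against 7.11, 6.15 and 7.37 in A. thaliana, or 3.96 ± 1.11 (SE) apart (limma adjusted p = 0.360). Arrays 1 and 2 of B. oleracea were far above the A. thaliana arrays, and array 3 was about 1 log2 unit above the highest of them. The 13.10 on array 2 is the common top level that quantile normalization gives the highest spots of each array, so the order of arrays 1 and 2 and the size of the gap depend on it. In units over background array 1 was the higher, at 2555 against 1717. G15/G16 stood at 10.98, 12.58 and 7.94 in B. oleracea, against 7.40, 6.0 and 7.94 in A. thaliana, or 3.39 ± 1.17 (SE) apart (limma adjusted p = 0.422). G9/G10 stood at 10.54, 11.56 and 7.74 in B. oleracea, against 7.00, 6.0 and 7.75 in A. thaliana, or 3.03 ± 0.99 (SE) apart (limma adjusted p = 0.422). At both, B. oleracea drought 3 fell on A. thaliana drought 3, so the groups overlapped. In units over background B. oleracea array 1 was again higher than array 2, at 2512 against 1639 at G15/G16 and 2170 against 1467 at G9/G10. The order of these arrays and the size of the gaps thus depend on quantile normalization there too.

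A7/A8 and H21/H22 had the same arrangement, and H21/H22 was singled out after its values were seen. A7/A8 stood at 10.23, 9.84 and 6.97 in B. oleracea and at 6.84, 7.10 and 7.38 in A. thaliana (limma adjusted p = 0.493). H21/H22 stood at 9.85, 10.54 and 7.65 in B. oleracea and at 7.48, 6.56 and 7.97 in A. thaliana (limma adjusted p = 0.478). In units over background B. oleracea array 1 was higher than array 2 at H21/H22, at 1430 against 1042. The spots of M5/M6 were even on each array. M5 had 2502, 1669 and 209 units over background on B. oleracea drought 1, 2 and 3, and M6 had 2608, 1764 and 238.

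Without B. oleracea drought 3, limma called 5 pairs (1.30%). Of these, 4 were brighter in B. oleracea (1.04%) and 1 was dimmer. Those brighter were A7/A8 at 2.94 log2 units (limma adjusted p = 0.0118), I11/I12, M5/M6 at 5.13 and G9/G10 at 4.13 (limma adjusted p = 0.0401 for both). The 1 dimmer was I1/I2 at -1.68 (limma adjusted p = 0.0458). Among the arrays of low image background, where B. oleracea drought 3 and A. thaliana drought 3 are both absent, the count was 8 (2.08%), with 7 brighter (1.82%) and 1 dimmer. They included G15/G16 at 5.05 and H21/H22 at 3.27 (limma adjusted p = 0.0395 for both). A23/A24, the 1 that was dimmer there, differed by -2.50 (limma adjusted p = 0.0252), and on all 6 arrays it stood at 8.44, 8.48 and 11.02 in B. oleracea against 11.26, 10.98 and 9.65 in A. thaliana.

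**Figure D3:**
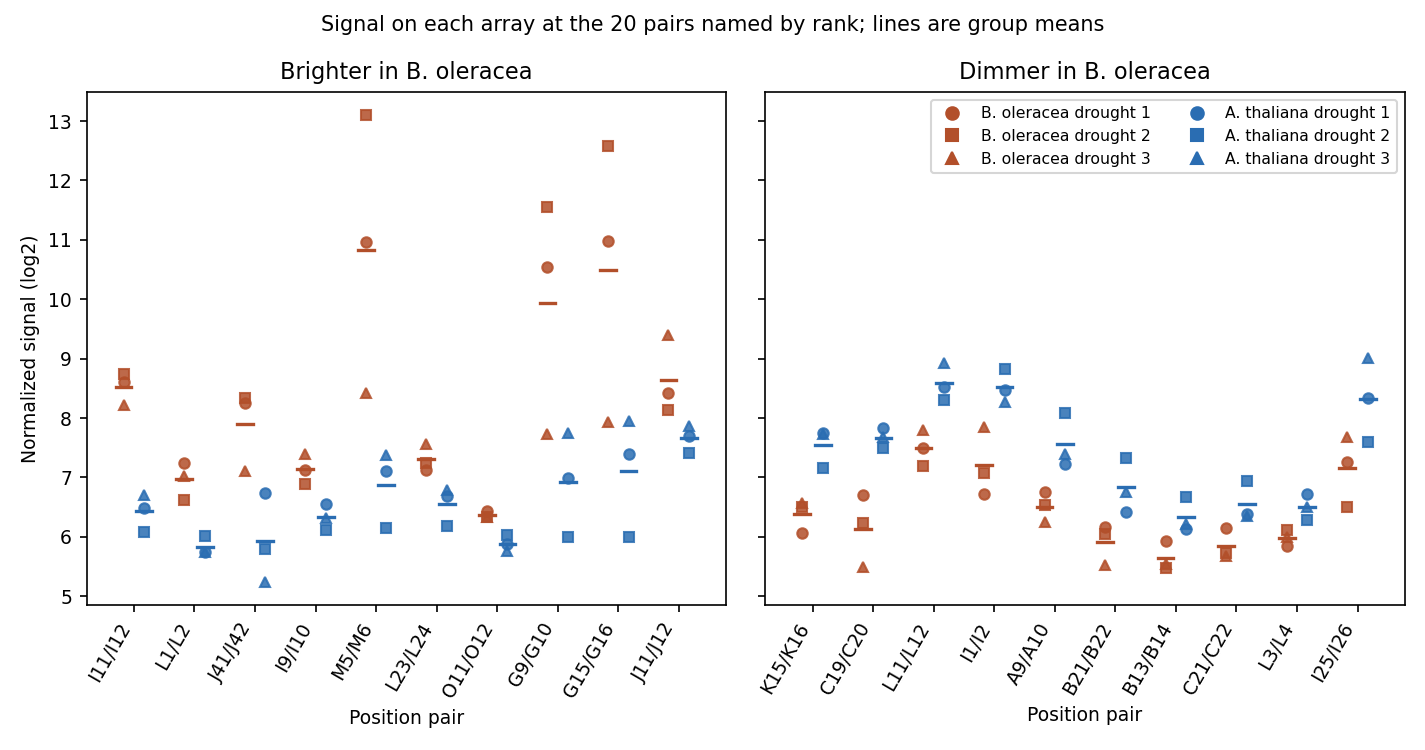
Normalized log2 signal on each of the 6 arrays at the 10 pairs ranked first among those brighter in B. oleracea and the 10 ranked first among those dimmer, with B. oleracea left of A. thaliana at each pair, a marker shape per replicate and a line at each mean. Only pairs above the limit on all 3 arrays of the brighter species were ranked. At M5/M6, G9/G10 and G15/G16 the triangle of B. oleracea drought 3 lies at 8.42, 7.74 and 7.94, below the circle and the square.

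No pair dimmer in B. oleracea passed the test on the 6 arrays. K15/K16 stood at 6.07, 6.50 and 6.57 in B. oleracea, against 7.74, 7.16 and 7.72 in A. thaliana, a gap of -1.16 ± 0.24 (SE; limma adjusted p = 0.220). It was above the limit on all 6 arrays, and the groups did not overlap. C19/C20 stood at 6.70, 6.23 and 5.49 in B. oleracea, against 7.83, 7.49 and 7.69 in A. thaliana, a gap of -1.53 ± 0.32 (SE; limma adjusted p = 0.220). B. oleracea drought 3 was below the limit there, at -9.09 and -2.96 units over background for the single spots.

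L11/L12 stood at 7.49, 7.19 and 7.80 in B. oleracea, against 8.52, 8.31 and 8.92 in A. thaliana, a gap of -1.09 ± 0.24 (SE; limma adjusted p = 0.237). The spots were far apart on all 6 arrays, so L11 and L12 may not hold the same probe, in which case the average is not the signal of a single probe. In B. oleracea they were uneven, with L11 at 46.2, 17.4 and 16.6 units over background and L12 at 438, 134 and 701 units on B. oleracea drought 1, 2 and 3. On A. thaliana drought 1, 2 and 3 L11 stood at 56.2, 200.0 and 427 units and L12 at 399, 813 and 2118 units. The authors gave L12 a volume of 0 on B. oleracea drought 3 although its total exceeds its background, and without that spot the array stood at 6.03 and the difference was -1.68 (limma adjusted p = 0.260).

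I1/I2 stood at 6.72, 7.08 and 7.84 in B. oleracea, against 8.48, 8.82 and 8.27 in A. thaliana, a gap of -1.31 ± 0.32 (SE; limma adjusted p = 0.259). On the A. thaliana side all arrays lay above 8, and on the B. oleracea side array 3 came nearest to them. A9/A10 averaged 6.51 ± 0.26 in B. oleracea and 7.57 ± 0.45 in A. thaliana (SD, n = 3 each; limma adjusted p = 0.265). I25/I26 averaged 7.15 ± 0.60 in B. oleracea and 8.32 ± 0.71 in A. thaliana (SD, n = 3 each; limma adjusted p = 0.478), and its groups overlapped.

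The other 4 of the 10 ranked first among pairs above the limit on all 3 A. thaliana arrays were B21/B22, B13/B14, C21/C22 and L3/L4. Their differences were -0.92, -0.69, -0.71 and -0.52 (limma adjusted p = 0.415 to 0.422). I27/I28, E23/E24 and M11/M12 had smaller unadjusted p-values than B21/B22. They were left out because A. thaliana drought 2 was below its limit there, and they differed by -0.89, -0.60 and -1.11 (limma adjusted p = 0.237, 0.409 and 0.409). At B13/B14 and C21/C22 the B. oleracea signal was above the limit on 1 of 3 arrays. A. thaliana drought 2, the array without a background, gave the highest A. thaliana value at A9/A10 (8.08), B21/B22 (7.33), B13/B14 (6.68) and C21/C22 (6.95). All 4 lie in rows A to C, where dim pairs of that array also read high, as 131 units at B25/B26 of the low block. At D25/D26 of the low block it read 37.4 units. Without A. thaliana drought 2 the differences of the 4 pairs were -0.83, -0.63, -0.42 and -0.46 (limma adjusted p = 0.170 to 0.498), against -1.06, -0.92, -0.69 and -0.71 with it. Without that array limma called 5 pairs (1.30%). Of these, 1 was brighter in B. oleracea and 4 were dimmer (1.04%). The 4 dimmer were M11/M12 at -1.47, F7/F8 at -1.40 and E17/E18 at -1.45 (limma adjusted p = 0.0172 for each), and K15/K16 at -1.37 (limma adjusted p = 0.0417).

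**Figure D4:**
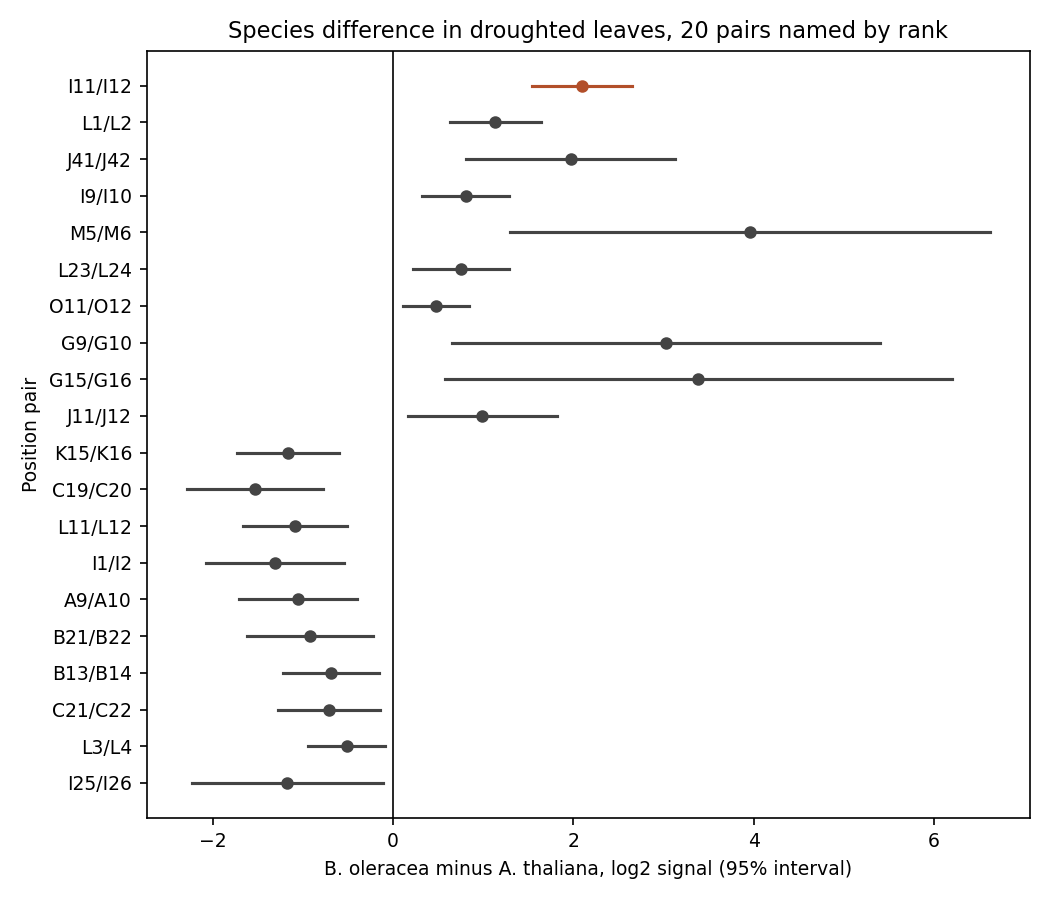
Difference in log2 signal, B. oleracea minus A. thaliana, with its 95% interval from limma, for the 20 pairs named by rank; only I11/I12, drawn in colour, passed after adjustment over all pairs. The intervals are widest at M5/M6 (1.29 to 6.62), G15/G16 (0.58 to 6.19) and G9/G10 (0.65 to 5.40).

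Some pairs gave strong signal in both species. C9/C10 had 12060, 1554 and 6545 units over background on B. oleracea drought 1, 2 and 3, against 4803, 17973 and 26232 units on A. thaliana drought 1, 2 and 3. After normalization C9/C10 averaged 12.38 ± 0.62 in B. oleracea and 13.10 in A. thaliana, where all 3 arrays had that common top level. D3/D4 averaged 11.92 ± 0.87 in B. oleracea and 12.34 ± 0.43 in A. thaliana (SD, n = 3 each). J3/J4 averaged 11.88 ± 0.51 in B. oleracea and 12.36 ± 0.20 in A. thaliana (SD, n = 3 each). The 95% intervals of these differences were -1.52 to 0.69 at D3/D4 and -1.15 to 0.20 at J3/J4.

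M21/M22 stood at 11.58, 10.09 and 9.70 in B. oleracea, against 11.39, 11.98 and 11.58 in A. thaliana (difference -1.19, SE 0.49). J13/J14 stood at 9.74, 8.77 and 10.93 in B. oleracea, against 10.88, 10.97 and 11.07 in A. thaliana (difference -1.16, SE 0.51). P23/P24 was set apart by 1 array, at 9.35, 9.74 and 13.10 in B. oleracea against 10.54, 10.39 and 10.71 in A. thaliana. The 13.10 is the common top level of quantile normalization. On B. oleracea drought 3 it had 9360 units over background, against 931 and 459 units on B. oleracea drought 1 and 2. With that array the difference was 0.18 (limma adjusted p = 0.957), and without it the direction turned, to -1.01 ± 0.22 (SE; limma adjusted p = 0.0823). Without A. thaliana drought 2 as well it was -1.12 (limma adjusted p = 0.0278), an alternative chosen after seeing the data. J13/J14 stood at -1.64 without B. oleracea drought 3 (limma adjusted p = 0.0700), and M21/M22 at -0.75 (limma adjusted p = 0.591).

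Signal above the limit on every array of both species was found at 43 pairs, 14.9% of those outside the low block. It was on all 3 B. oleracea arrays at 123 pairs (42.7%) and on all 3 A. thaliana arrays at 57 (19.8%). On A. thaliana drought 2 the limit itself was 128 units, against 7.17 and 62.9 units on A. thaliana drought 1 and 3 and 4.77 to 15.2 units on the B. oleracea arrays. I11/I12, at 112 units, and L1/L2, at 100 units, fell under that 128, while low-block pairs J25/J26 and L25/L26 stood at 65.8 and 72.3 units. The counts for A. thaliana and for both species together depend on that limit. At 4 pairs (1.39%) signal was above the limit on all 3 B. oleracea arrays and on 0 A. thaliana arrays, and the reverse held at 0 pairs. The 4 were L1/L2, I5/I6, M15/M16 and O15/O16. Only bounds on the measured means apply to them too, without sampling error. The bound was 1.07-fold higher in B. oleracea at both M15/M16 (limma adjusted p = 0.700) and O15/O16 (limma adjusted p = 0.566). At M15/M16 the 95% interval of the difference, -0.16 to 0.76 log2 units, takes in B. oleracea being lower. No bound above 1 was found at I5/I6.

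At 8 of the 43 pairs with signal on every array, 18.6%, the 95% interval of the difference lay wholly between -1 and 1 log2 unit. K19/K20 was the tightest, at 6.85, 6.42 and 6.63 in B. oleracea and 6.77, 6.72 and 6.92 in A. thaliana, with an interval of -0.59 to 0.24. D1/D2 had an interval of -0.50 to 0.60, O21/O22 of -0.43 to 0.85 and L7/L8 of -0.10 to 0.97. The others were C15/C16, J1/J2, L3/L4 and L13/L14. At these pairs a species difference of over 1 log2 unit lies outside the interval, on the offset scale.

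Most pairs with signal or with a wide difference lay in columns 1 to 24. Odd-lettered and even-lettered rows of columns 1 to 24 and of columns 25 to 48 make regions of 96 pairs each. Of the 43 pairs with signal on all 6 arrays, 22 were in odd-lettered rows and 18 in even-lettered rows of columns 1 to 24, and 3 were in odd-lettered rows of columns 25 to 48. Even-lettered rows of columns 25 to 48 are the low block, which sets the limit, so by definition few of its pairs could exceed it. Of the 27 pairs with a difference over 1 log2 unit, 16 and 7 were in odd-lettered and even-lettered rows of columns 1 to 24. The median difference was 0.05 and -0.00 log2 units in those regions, and -0.05 and -0.03 in odd-lettered and even-lettered rows of columns 25 to 48. What was spotted where is not given in the sources used here.

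Watered leaves of the same species give values for these probes on other arrays. A7/A8, M5/M6 and K15/K16 had been named in earlier work for the species comparison in watered leaves. Their wide differences there are thus part of how they were chosen and no separate support. When all 14 arrays were normalized together, M5/M6 differed by 3.40 log2 units under drought (SE 0.86, limma adjusted p = 0.262) and by 3.28 in watered leaves. The change in the species difference from watered to droughted leaves was 0.12 ± 1.13 (SE; limma adjusted p = 0.983). G9/G10 differed by 2.54 under drought and 2.74 in watered leaves, and G15/G16 by 2.89 under drought and 2.65 in watered leaves (limma adjusted p = 0.973 for both changes). A7/A8 differed by 1.65 under drought and 3.36 in watered leaves, a change of -1.71 ± 0.91 (SE; limma adjusted p = 0.580). The species difference at these probes was thus not shown to differ between drought and watering, and the SEs leave room for changes of more than 1 log2 unit.

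I11/I12 differed by 1.68 under drought and 0.60 in watered leaves on that scale, a change of 1.08 ± 0.43 (SE; limma adjusted p = 0.580). Its group means were 7.94 ± 0.29 in droughted B. oleracea, 6.26 ± 0.25 in droughted A. thaliana (SD, n = 3 each), 6.95 ± 0.68 in watered B. oleracea and 6.35 ± 0.25 in watered A. thaliana (SD, n = 4 each). K15/K16 differed by -0.87 under drought and -4.43 in watered leaves, a change of 3.56 ± 0.996 (SE) that did not pass (limma adjusted p = 0.245). A. thaliana K15/K16 stood at 7.24, 6.83 and 7.22 on the drought arrays, against 11.31, 10.87, 7.16 and 10.60 on watered arrays 1 to 4, so that watered array 3 lay with the drought arrays. At the 8 pairs over 1 log2 unit brighter in watered B. oleracea, B. oleracea drought 3 lay nearer the watered A. thaliana mean at 5, B. oleracea drought 1 at 0 and B. oleracea drought 2 at 1. At the 12 pairs over 1 log2 unit dimmer in watered B. oleracea it lay nearer that mean at 2, against 3 for each of the other 2 B. oleracea drought arrays. A. thaliana drought 1, 2 and 3 lay nearer the watered B. oleracea mean at 8, 11 and 9 of these 12 pairs. At the 8 brighter pairs their counts were 3, 1 and 3. Both lists were chosen for a wide difference on the watered arrays, so these counts are a description and do not rank the species. Over all pairs, limma called a change in the species difference at 1 pair (0.260%), E29/E30.

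**Figure D5:**
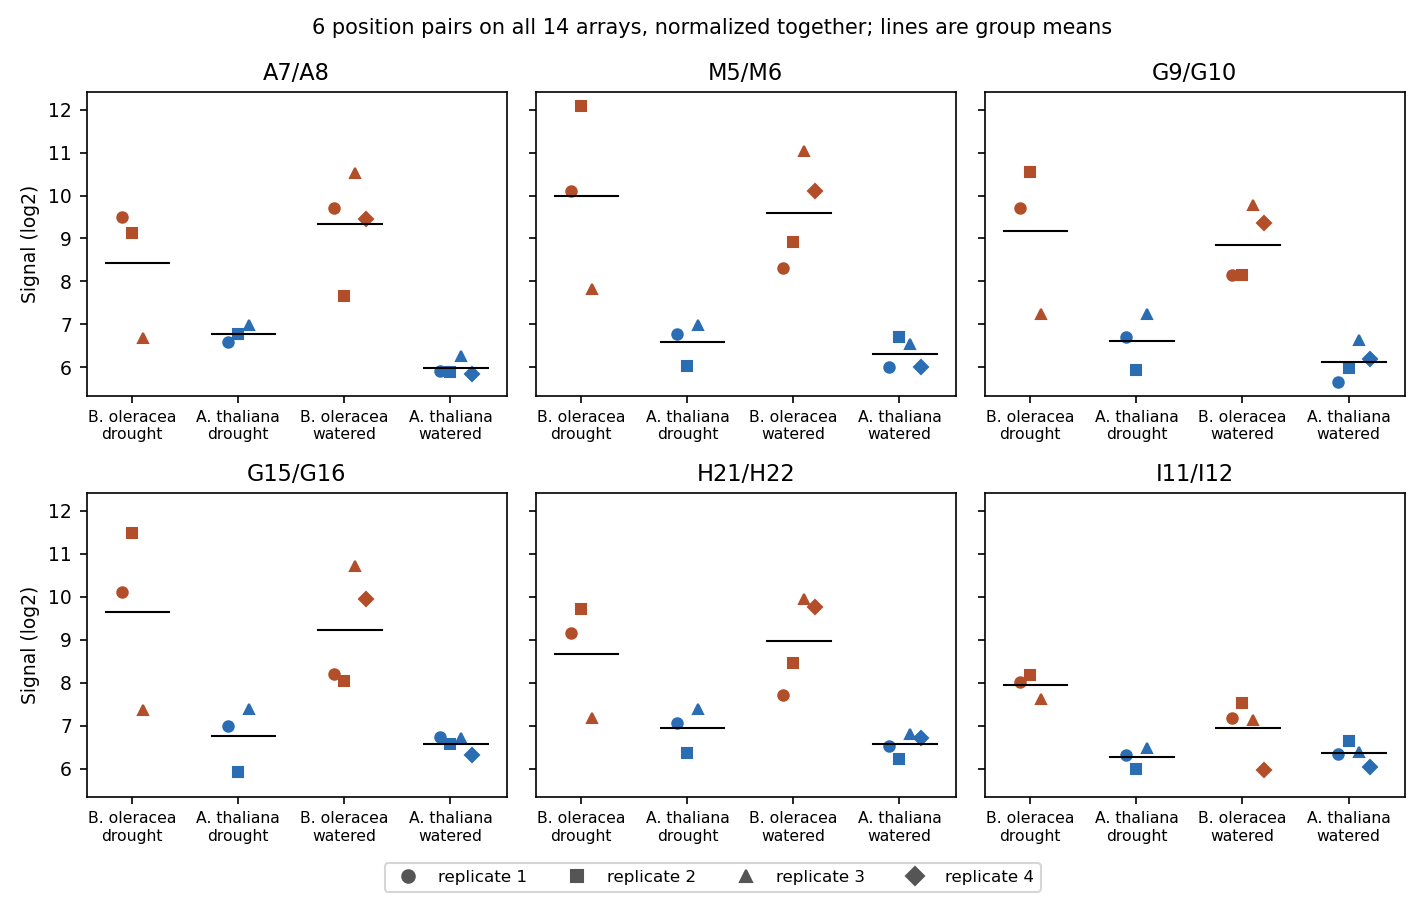
Normalized log2 signal of 6 position pairs on all 14 arrays, normalized together, by species and treatment, with a marker shape per replicate and a line at each group mean. At A7/A8, M5/M6, G9/G10, G15/G16 and H21/H22 the triangle of B. oleracea drought 3 lies below all 4 watered B. oleracea arrays, and at I11/I12 it lies above them.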

How the data were processed

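The deposited files give, per the file headers, for every array position its total and background, their difference as a volume, that volume after scaling, and a flag for presence. The total and background intensity were used as deposited, in imager units. By the values, the volume is total minus background with negative values set to 0, except at 3 spots of B. oleracea drought 3 (H7, H8 and L12) that the authors set to 0 although the total exceeds the background. The authors' normalized volume is a signal equal to the volume times 1 factor per array, of unstated basis, and the deposited value table repeats it. It served as an alternative only, and its scaling between arrays is unknown. No quantification software is named in the labels or headers.

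The 6 drought arrays were processed on their own. Intensities were corrected with the normexp model (offset 15.3 units, the median total of 153 units divided by 10), put on the log2 scale, quantile normalized and averaged within pairs. limma 3.58.1 in R 4.3.3 fitted the species means, and Benjamini-Hochberg adjustment ran over all pairs, with a threshold of 0.05. The change between watered and droughted leaves came from a fit of 4 group means on 14 arrays (offset 17.7 units). Array measures were compared by exact permutation (scipy 1.17.1) over 4 measures, where the smallest adjusted value was 0.6. The fit was tested on simulated data with independent noise of a common spread for all pairs and arrays. That simulation holds no array that stands apart and no unevenness across a membrane, so it does not speak to them.

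Named pairs were up to 10 each way by p, filled with pairs above the limit on all 3 arrays of the brighter species, the 5 brightest per species, and 5 pairs named in earlier work for watered leaves or the change with drought. The low block, the lists and the members were chosen with earlier results of these data known. Gene lists and cell type markers could not be applied, since positions carry no gene names. A bound uses, per array, the higher of the lowest signal above the limit and the pair's own. It concerns the measured means and carries no sampling error. Alternatives covered background, offset, normalization, filter, weights, blocks and left-out arrays. Arrays give no counts, and their number limits the precision. The main fit did not pair arrays by replicate number. Deviations of same-numbered arrays correlated at -0.05, -0.05 and -0.09, which cannot show whether they were processed together. Both replicate 3 arrays had high background.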

Additional observations from a re-analysis of the deposited data

Results flagged for a closer look

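E29/E30 differed in its species difference between droughted and watered leaves, by the test of that change itself. On the 14 arrays the species difference under drought minus that in watered leaves was fitted at 2.32 ± 0.42 (SE) on the log2 scale (limma adjusted p = 0.0328). Watered B. oleracea was above the limit on none of its arrays, so its level there is only bounded. The change between the measured means is 1.51 log2 units when each of those arrays takes the lowest signal above its limit, a bound without sampling error. That bound uses the measured A. thaliana drought mean, although only 1 of its 3 arrays was above the limit. In droughted leaves alone the pair stood at 6.72, 6.64 and 6.6 in B. oleracea, against 6.70, 5.47 and 5.70 in A. thaliana, or 0.70 ± 0.33 (SE) apart (limma adjusted p = 0.544). The groups overlapped there through A. thaliana drought 1. The pair was above the limit on 3 of 3 B. oleracea and 1 of 3 A. thaliana drought arrays, and on 0 of 4 B. oleracea and 4 of 4 A. thaliana watered arrays. Its call ended without B. oleracea drought 1, 2 or 3 (2.23, 2.29 and 2.35), without A. thaliana drought 2 or 3 (2.03 and 2.21), and without B. oleracea control 2, 3 or 4 (2.23, 2.38 and 2.47). It ended too with an offset 4 times larger, cyclic loess, no normalization and the background level as a block. Over all alternatives the call held in 12 and ended in 13.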

How the results depend on the processing

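In the comparison of droughted leaves, limma called 0 pairs with no background correction (48 at an unadjusted p under 0.05), median scaling (32), scaling to the low block (28), no normalization (16), the authors' normalized volume (14), the background level as a block (36) and all 14 arrays together (26). With the replicate block it called 0 (31 at an unadjusted p under 0.05). It called 8 on the arrays of low background, and from 0 to 5 with 1 array left out. Without both A. thaliana drought 2 and B. oleracea drought 3 it called 31, 12 brighter and 19 dimmer in B. oleracea, an alternative chosen after seeing the data, in which the 2 arrays kept of each species are the best correlated ones. I11/I12 stayed brighter in B. oleracea under all 24 alternatives, at 1.07 to 4.41 log2 units, and was called under 11 (limma adjusted p = 0.00569 to 0.623 over the 24). With no normalization the median of all pairs shifted to -0.78, and with the authors' normalized volume to 0.37. Leaving out the 3 spots that the authors set to 0, also chosen after seeing the data, changed no call. With no normalization O11/O12 turned to -0.40, and with the authors' normalized volume I1/I2 turned to 0.40, A9/A10 to 0.11 and I25/I26 to 0.22, none called. For the change of the species difference with watering, the count was 7 with no background correction, 4 with array weights, 2 with median scaling, 0 with an offset 4 times larger (26 at an unadjusted p under 0.05), cyclic loess (35), no normalization (12) or the background block (27), 1 with the replicate block, and 0 to 7 with 1 array left out. Among array measures, the difference in the share of pairs above the limit was 15.9 percentage points, 10.4 to 23.0 with 1 array left out, -13.2 with the 99th percentile and -18.4 with the presence flag. The difference in the correlation of the spots of a pair was -0.119 to 0.0706, and that in median background -808 to 235 units, with 1 array left out. Dim signal near the limit bounds what most pairs can show.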
